A study of Bos taurus with 6 samples.

Results

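Cytosolic ribosomal proteins are the protein parts of the ribosomes that translate the mRNAs of nuclear genes. The genes described here were chosen by name: a row of the expression tables was taken when its gene name followed the RPL, RPS or RPLP pattern or was RPSA, and the RPS6K kinase genes were left out. This gave 85 of the 32183 rows, under 83 distinct names. Of these rows, 52 belonged to the large subunit (49 RPL and 3 RPLP rows) and 33 to the small subunit. RPL41 and RPL39L were not analysed here, and FAU and RPL36AL, which also encode ribosomal proteins but fall outside the name pattern, are described with the neighbouring gene lists.

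RNA was sequenced from rumen epithelial primary cells (REPC), cells taken from the lining of the rumen of a single 2-week-old Holstein bull calf that had received milk replacer only. The 3 butyrate cultures were exposed to 5 mM butyrate for 24 h, and the 3 control cultures were not. All 6 cultures came from the same animal, so each p-value below measures the spread between cultures and not between animals. Butyrate is a short-chain fatty acid made by fermentation in the rumen, a fuel of the rumen epithelium and an inhibitor of histone deacetylases. The comparison asks how the ribosomal protein mRNAs of these cells differed after butyrate.

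A ribosome holds a single copy of most of its proteins, joined to ribosomal RNA in a large subunit, which forms the peptide bond, and a small subunit, which reads the mRNA. The mRNAs of these proteins are among the most abundant in growing cells and begin with a terminal oligopyrimidine (TOP) sequence, through which mTOR signalling and the protein LARP1 control their translation. Several ribosomal proteins have a paralog, a second gene for a similar protein, and mammalian genomes also carry many processed copies of ribosomal protein genes that do not make protein.

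Levels are given as FPKM, the number of fragments scaled by transcript length and by the total of mapped fragments, which the authors estimated with Cufflinks from uniquely mapped reads only. Reads that fit a gene and a near-identical copy equally well were therefore not counted, and how much this lowered a given gene was not tested. FPKM is a relative measure, and in bulk cultures fewer cells of a type and less RNA per cell cannot be told apart. The FPKM of all rows summed to 678035 to 681912 in the control cultures and to 619401 to 629037 in the butyrate cultures. Genes above 0 numbered 16051 to 16193 in control and 17306 to 17510 in butyrate cultures. For the ribosomal protein genes at a mean of 100 FPKM or more, the intervals that Cufflinks gave correspond to a median of 1080 to 1624 fragments per gene and culture, and the distance from a value to its upper bound had a median of 5.49% of the value (2.50 to 9.63%). These intervals cover counting error only.

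The labelled cell type was checked against marker lists, each given as the sum of its FPKM values. The 10 stratified epithelium markers summed to 4508 to 4679 in control and 4974 to 5268 in butyrate cultures, and none of them was at 0. KRT17 and KRT5, keratins of stratified epithelium, averaged 3858 and 401 FPKM in control cultures. KRT5 was called lower (log2 fold change -0.17), and KRT17, CDH1, DSP and PERP were not called. The KRT5 call was lost under every other scaling, and its sign turned after quantile normalization (0.062). When each culture was rescaled to the same total, KRT17 (0.17) and PERP (0.23) were called higher. KRT14, KRT15, PKP1, DSG3 and TP63 were called higher, with log2 fold changes of 2.78, 2.24, 2.08, 1.41 and 0.38. The TP63 call was lost after quantile normalization (limma adjusted p = 0.0617). Over all tested genes 25.9% were called lower and 32.5% higher. EPCAM, a marker of simple epithelium, was at 0.406 to 0.737 FPKM in control cultures and had a log2 fold change of 2.44. The 4 simple epithelium markers together rose from 1873 to 2000 up to 4141 to 4163. All 4 of them, EPCAM, KRT8, KRT18 and KRT19, were called higher. Markers of other cell types moved as well. The 10 fibroblast markers summed to 4356 to 4512 in control and 6374 to 6715 in butyrate cultures, mostly from VIM and COL1A1, with LUM, PDGFRB and FAP below 1 FPKM throughout. All 8 of the fibroblast markers that were tested were called higher in the FPKM as deposited, and 6 after quantile normalization. The 4 smooth muscle markers summed to 3437 to 3626 in control and 1033 to 1391 in butyrate cultures. ACTA2 and CNN1, which make up nearly all of that sum, and MYH11 were called lower, while DES was called higher, from a mean of 0.367 to 1.60 FPKM (limma adjusted p = 0.0074). The 4 immune markers summed to at most 9.38 with PTPRC at 0, and the 3 endothelial markers to at most 8.41 with CDH5 at 0. Of those tested, 1 of 2 immune and 2 of 2 endothelial markers were called higher. The part of these shifts in the ribosomal protein values was not tested.

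The ribosomal protein genes took a smaller share of the measured mRNA after butyrate. They made up 8.36, 8.36 and 8.03% of the summed FPKM in control cultures 1 to 3 and 6.39, 6.32 and 6.32% in butyrate cultures 1 to 3. The groups did not overlap, and the lowest control culture stood well above the highest butyrate culture. The mean share was 8.25% ± 0.187 in control and 6.34% ± 0.0424 in butyrate cultures (SD, n = 3 each), a difference of -1.91 percentage points. Large subunit genes went from 4.52% ± 0.0989 to 3.47% ± 0.0227 and small subunit genes from 3.73% ± 0.0886 to 2.87% ± 0.0254. This share is not altered by any rescaling of a whole culture. In FPKM, the sum over all 85 rows was 56091.5 ± 1301.56 in control and 39582.7 ± 139.271 in butyrate cultures, or 70.6% of control.

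**Figure D1:**
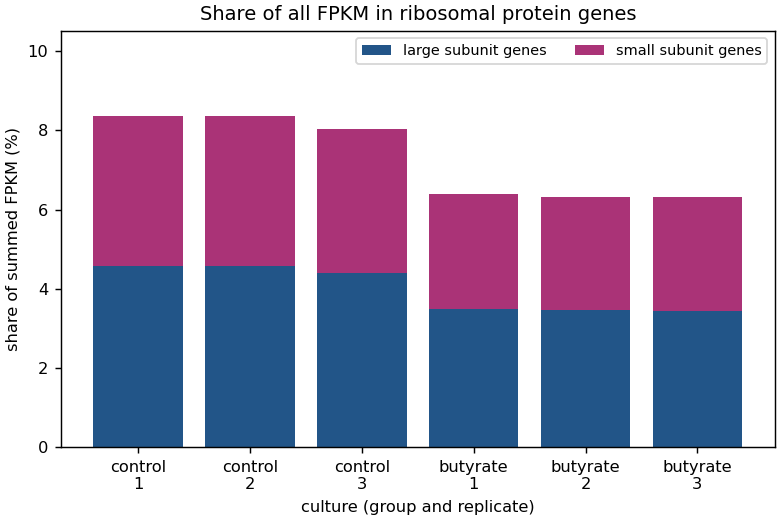
Share of the summed FPKM of each culture (y axis, %) held by large subunit (blue) and small subunit (purple) ribosomal protein genes, 1 stacked bar per culture. The 3 control bars reach 8.03 to 8.36% and the 3 butyrate bars 6.32 to 6.39%, and both subunits are smaller in each butyrate bar.

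Nearly all of the genes were lower after butyrate, each by a modest amount. Differences were tested with limma on log2(FPKM + 0.1) over 15813 genes, those whose mean FPKM reached 0.1, and a gene was called at a Benjamini-Hochberg adjusted p under 0.05; fold changes are on that log2 scale and are butyrate minus control. Of the 85 rows, 84 were tested, since RPL10L was listed at 0 in every culture. All 84 lay below control in the FPKM as deposited, against 45% of all tested genes, but 4 of them (RPL17, RPL37A, RPLP0 and RPS27) came out above control when each culture was rescaled to the same total and 11 did so after quantile normalization. 80 of the 84 were called lower and 0 higher. Over all tested genes, 25.9% were called lower and 32.5% higher. In 81 of the 84 the values of the groups did not overlap, with butyrate lower, as in 28.9% of all tested genes. The median log2 fold change was -0.52 with quartiles of -0.73 and -0.37, beside a median of 0.10 over all tested genes. With a Bonferroni adjustment, as the study used, 41 of the 84 were lower, against 6.97% of all genes. None of the 84 met the study's full DEG thresholds, which add a log2 fold change beyond 2, against 1.51% of all genes for lower. Both rules were applied here to the limma fits, whereas the study tested with Cufflinks, so its own DEG lists can differ.

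Because these genes are so highly expressed, they were also set beside other abundant genes. In each culture 77 or 78 of them ranked in the top 5% of the genes above 0. Among the 1198 tested genes with a mean of 100 FPKM or more, 56.8% were called lower, 57.5% did not overlap in that direction, and the median log2 fold change was -0.23. Of the 78 ribosomal protein genes in that range, 75 were called lower, 76 did not overlap and the median was -0.48, which is 71.5% of control. A test with 3 cultures against 3 by exact permutation cannot give a p below 0.1 for any single gene, so the calls rest on the spread that limma shares across genes.

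The genes did not all fall by the same amount. Over those 78 genes the log2 fold changes ran from -1.11 (RPL3) to -0.07 (RPL37A), that is from 46.2 to 95.2% of control, and their SD across genes was 0.25 while the median standard error of a single gene was 0.041. The order of the genes recurred between cultures: log2 differences formed from 3 separate butyrate and control culture pairs had Spearman correlations of 0.892 to 0.936 across the 78 genes, a description over genes that share libraries and not over replicates. The size of the fall showed no relation to the level in control (Spearman -0.0034, n = 78 genes) and a weak one to the length of the locus (0.19). Control means ran from 161.6 FPKM (RPS26) to 1716 FPKM (RPS29), a 10.6-fold range for proteins that are mostly needed in equal numbers, with a median of 704.7. The butyrate median was 472.3, and the order of the levels was largely shared by both groups (Spearman 0.936). Control replicate 3 was the lowest of the controls in 55 of the 78 genes.

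**Figure D2:**
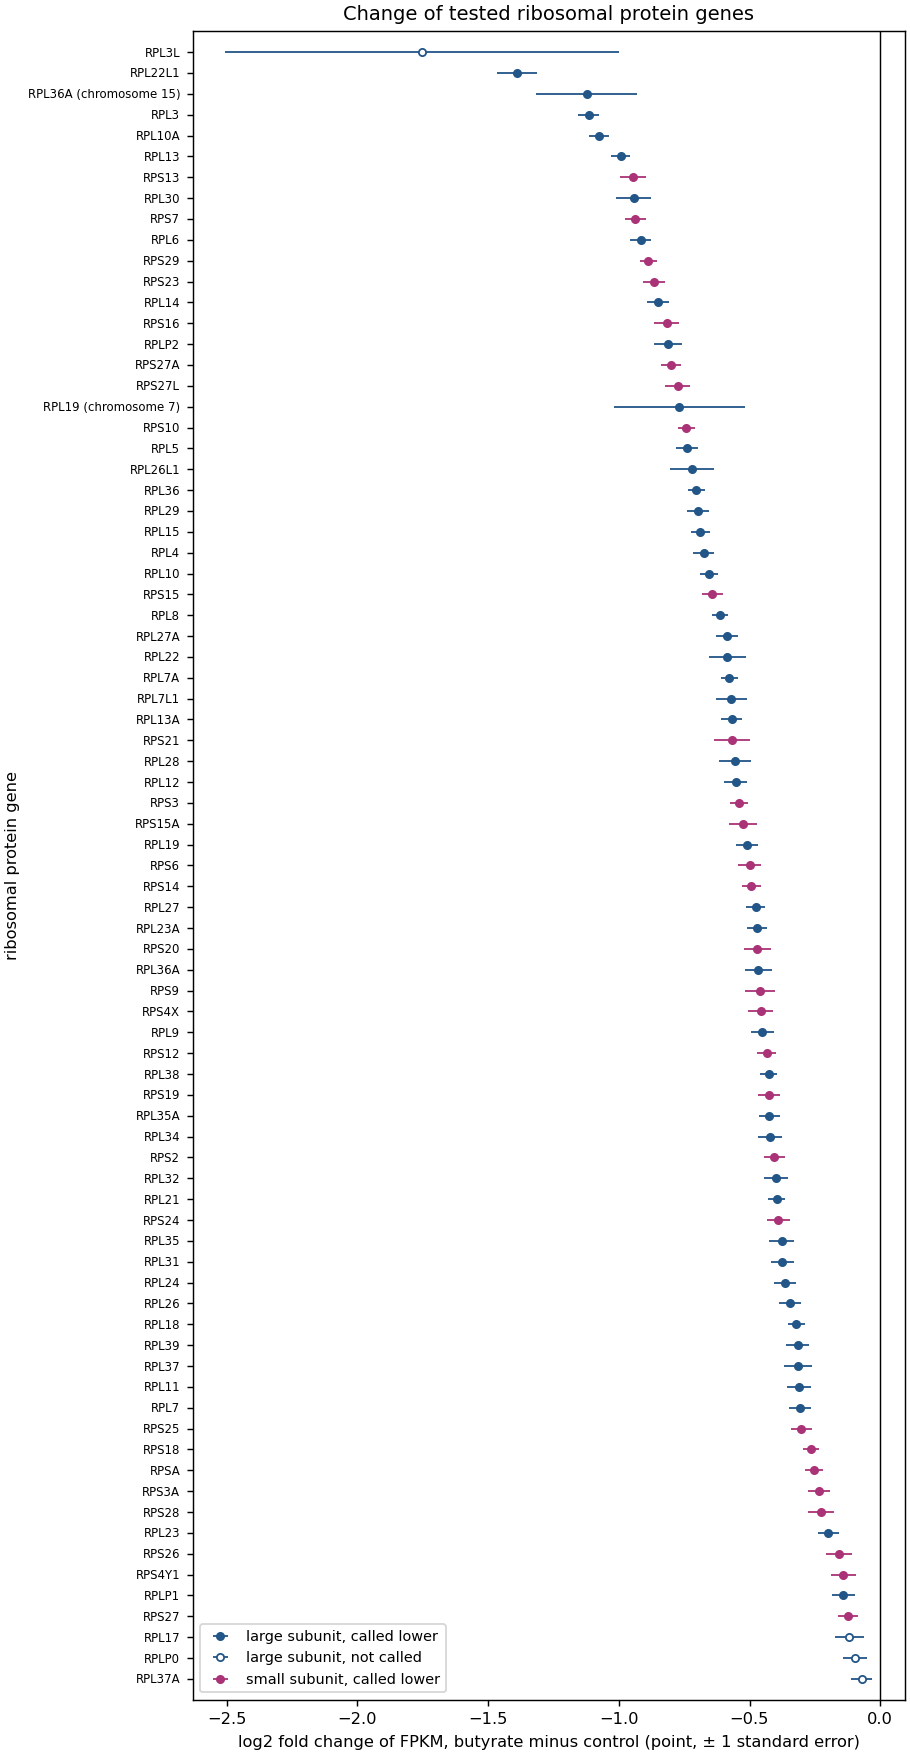
Log2 fold change of FPKM, butyrate minus control (x axis), of 79 of the tested ribosomal protein genes (y axis), with 1 standard error on each side; large subunit genes are blue, small subunit genes purple, and open circles were not called. Every point lies below 0 in the FPKM as deposited, and those nearest 0 (RPL17, RPL37A, RPLP0 and RPS27) lie above it after rescaling to equal totals. RPL3L, with the widest bar, was listed at 0 in all butyrate cultures, so its value depends on the added 0.1.

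In the large subunit, 42 of the 45 genes at 100 FPKM or more were called lower, with a median of -0.48. RPL3, a core protein near the site of peptide bond formation (chr5:111261437-111267697, UMD3.1), measured 673, 652 and 641 FPKM in control and 309, 290 and 308 FPKM in butyrate cultures. The groups were far apart, and its log2 fold change of -1.11 (SE 0.040, limma adjusted p = 1.6e-07) was the lowest among the 78 genes at 100 FPKM or more. RPL10A, which forms the mobile stalk where spent tRNAs leave (chr23:9391538-9394013), measured 508, 495 and 490 FPKM in control and 244, 230 and 235 FPKM in butyrate cultures. It fell by 1.07 (SE 0.038, limma adjusted p = 1.5e-07). RPL13 (chr18:14533164-14535553) measured 686, 711 and 714 FPKM in control and 358, 345 and 359 FPKM in butyrate cultures, a log2 fold change of -0.99 (SE 0.036). RPL8, a protein of the peptidyl transferase region and the most abundant large subunit mRNA, measured 1643, 1716 and 1687 FPKM in control and 1088, 1100 and 1109 FPKM in butyrate cultures, a log2 fold change of -0.61 (SE 0.031). RPL37, the next in level, averaged 1213 ± 70.1 in control and 976 ± 50.9 FPKM in butyrate cultures and fell by 0.31 (limma adjusted p = 0.00102). RPL10, a protein that joins the large subunit late in its assembly, measured 869, 884 and 835 FPKM in control and 544, 548 and 551 FPKM in butyrate cultures, which is 63.5% of control.

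The remaining large subunit genes formed a continuous range. Together with RPL13, RPL8 and RPL10, 20 genes stood at 50.3 to 70.2% of control, among them RPL30, RPL6, RPL14, RPLP2, RPL5, RPL36, RPL29, RPL15, RPL4, RPL27A, RPL22, RPL7A, RPL13A, RPL28, RPL12 and RPL19. Another 18, with RPL37 among them, stood at 71.9 to 80.8%: RPL27, RPL23A, RPL36A, RPL9, RPL38, RPL35A, RPL34, RPL32, RPL21, RPL35, RPL31, RPL24, RPL26, RPL18, RPL39, RPL11 and RPL7. All 38 were called lower. 5 genes stood at 87.1 to 95.2%, namely RPL23, RPLP1, RPL17, RPLP0 and RPL37A. RPL17, which lines the tunnel where the new protein leaves, measured 341, 306 and 296 FPKM in control and 292, 284 and 291 FPKM in butyrate cultures. The groups did not overlap, but by a narrow margin, and the log2 fold change of -0.12 was not called (SE 0.055, limma adjusted p = 0.0959). RPL37A measured 617, 612 and 577 FPKM in control and 568, 590 and 560 FPKM in butyrate cultures, which overlap (-0.07, limma adjusted p = 0.163). After quantile normalization RPL37A was called higher (0.23, limma adjusted p = 0.000745), so its direction depends on the scaling. Without control replicate 3, RPL17 was called lower (-0.16, limma adjusted p = 0.0487).

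The proteins of the ribosomal stalk differed from each other. The stalk recruits the elongation factors to the large subunit, with RPLP0 at its base and RPLP1 and RPLP2 as its acidic arms. RPLP0 (chr17:64809254-64813277) measured 1022, 1042 and 939 FPKM in control and 966, 934 and 906 FPKM in butyrate cultures, which overlap, and its log2 fold change of -0.10 was not called (SE 0.047, limma adjusted p = 0.107). RPLP1 measured 1050, 1021 and 941 FPKM in control and 907, 915 and 908 FPKM in butyrate cultures (-0.14, SE 0.044, limma adjusted p = 0.0235). RPLP2 (chr29:50768650-50771124) measured 974, 1096 and 1004 FPKM in control and 609, 590 and 551 FPKM in butyrate cultures. RPLP2 fell by 0.81 (SE 0.055, limma adjusted p = 3.9e-06), to 56.9% of control, while its stalk partners stood at 90.6 and 93.4%; the difference between them was not tested. Leaving out control replicate 3 brought RPLP0 under the threshold (-0.14, limma adjusted p = 0.0248), and leaving out any other culture took RPLP1 past it (limma adjusted p from 0.0652 to 0.0937). RPLP0 came out at 0.026 after rescaling to equal totals, and RPLP1 at 0.024 after quantile normalization, so neither direction holds under every scaling.

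RPL5 and RPL11 bind 5S ribosomal RNA as a particle that can also bind MDM2, a ubiquitin ligase. RPL5 (chr3:50787384-50795988) measured 296, 295 and 299 FPKM in control and 180, 170 and 183 FPKM in butyrate cultures, a log2 fold change of -0.74 (SE 0.041, limma adjusted p = 1.4e-06). RPL11 (chr2:129791371-129795602) measured 527, 568 and 515 FPKM in control and 422, 444 and 433 FPKM in butyrate cultures, a log2 fold change of -0.31 (SE 0.045, limma adjusted p = 0.000411) that quantile normalization reduced to 0.0030 with the opposite sign. The groups of both genes stood apart, RPL5 at 59.9% and RPL11 at 80.6% of control.

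**Figure D3:**
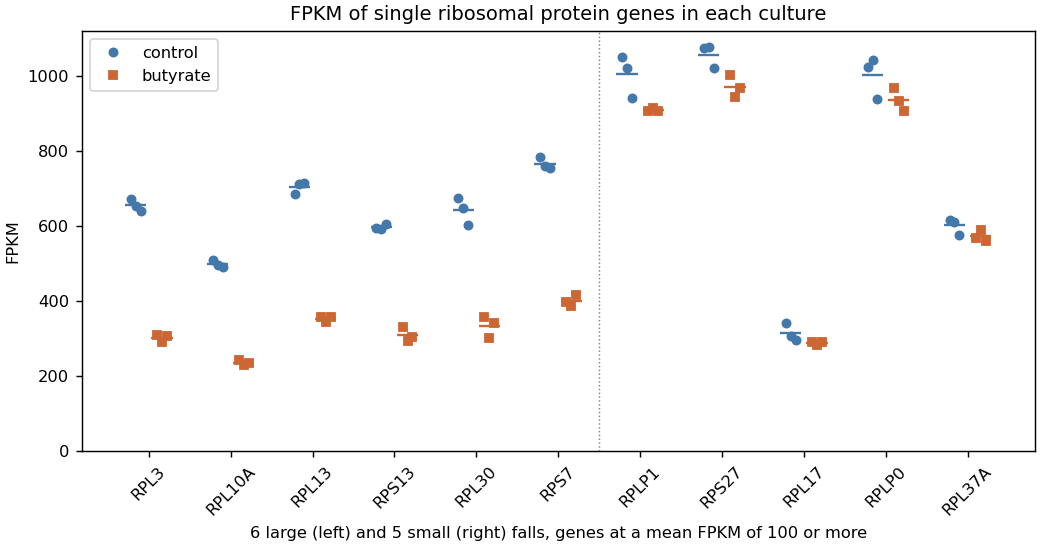
FPKM (y axis) of single ribosomal protein genes in each culture (circles control, squares butyrate, short lines the mean of 3), with 6 of the largest falls among genes at 100 FPKM or more on the left and 5 of the smallest on the right. On the left the groups are far apart, as for RPL3 (655 against 302.5 FPKM), while on the right they lie close or overlap, as for RPL37A (602 against 573 FPKM); the right-hand genes lie at or above control under at least 1 other scaling.

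In the small subunit, all 33 genes were called lower and none of the groups overlapped, with a median of -0.49; 28 were called lower after rescaling to equal totals, and 27 lower and 1 higher after quantile normalization. RPS29, a small zinc-binding protein of the subunit head (chr10:42669271-42671123), had the highest mean level of all 85 rows in control cultures. It measured 1768, 1718 and 1662 FPKM in control and 924, 919 and 941 FPKM in butyrate cultures. It fell by 0.89 (SE 0.034, limma adjusted p = 2.0e-07). In butyrate cultures its mean lay below those of RPL8, RPSA, RPL37, RPS27, RPS18 and RPLP0. RPS13 (chr15:35943265-35945987) had the lowest log2 fold change of this subunit, -0.95 (SE 0.050), and went from 594, 591 and 606 FPKM in control to 332, 293 and 304 FPKM in butyrate cultures. RPS15, also a protein of the head, measured 1345, 1392 and 1268 FPKM in control and 851, 864 and 847 FPKM in butyrate cultures, a log2 fold change of -0.64 (SE 0.040). RPSA, known also as the laminin receptor precursor, measured 1171, 1220 and 1159 FPKM in control and 1008, 978 and 988 FPKM in butyrate cultures, a log2 fold change of -0.25 (SE 0.034, limma adjusted p = 0.000239). RPS27A, made as a fusion with ubiquitin, averaged 1114 ± 23.0 FPKM in control and 641 ± 23.4 FPKM in butyrate cultures, or 57.5% of control. RPS6, the substrate of the S6 kinases, stood at 70.8% of control.

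With RPS13, RPS29, RPS15 and RPS27A, 15 small subunit genes stood at 51.9 to 69.4% of control, among them RPS7, RPS23, RPS16, RPS27L, RPS10, RPS21, RPS3 and RPS15A. RPS6, RPS14, RPS20, RPS9, RPS4X, RPS12, RPS19, RPS2, RPS24, RPS25, RPS18 and RPSA, 12 genes, stood at 70.8 to 83.8%. The last 6, with RPS3A, RPS28, RPS26, RPS4Y1 and RPS27 among them, stood at 85.1 to 91.9%. RPS27 measured 1073, 1076 and 1019 FPKM in control and 1001, 944 and 966 FPKM in butyrate cultures (-0.12, SE 0.038, limma adjusted p = 0.0222). This call was narrow, as was that of RPS26, which was lost when any culture but control replicate 3 was left out (limma adjusted p from 0.0510 to 0.0870). RPS27 was not called without control replicate 1 or 2 or butyrate replicate 2 or 3 (limma adjusted p from 0.0642 to 0.0846), and came to 0.00057 after rescaling to equal totals.

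The position of the genes gave little to set beside these values. The 85 rows lay on 28 chromosomes, with at most 9 on any of them (chromosome 18), and 4 on the X chromosome. RPL3L and RPS2 on chromosome 25, 5114 bases apart, were unlike in level, since RPL3L was barely detected and RPS2 fell by 0.41 from 977 to 738 FPKM.

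The paralogs were read as a percentage of their partner's FPKM in each culture, a ratio that is not altered by rescaling a culture. RPL22L1, the paralog of RPL22, measured 55.9, 54.7 and 47.3 FPKM in control and 19.9, 20.03 and 20.01 FPKM in butyrate cultures (chr1:97339621-97343997), a log2 fold change of -1.39 (SE 0.075, limma adjusted p = 1.2e-06). RPL22 fell by 0.58, and the ratio of RPL22L1 to RPL22 went from 15.3% ± 0.765 to 8.72% ± 0.418 (SD, n = 3 each). RPS27L, the paralog of RPS27, measured 761, 766 and 742 FPKM in control and 453, 414 and 460 FPKM in butyrate cultures, a log2 fold change of -0.78 (SE 0.046). Its ratio to RPS27 was 70.9, 71.1 and 72.8% in control and 45.2, 43.8 and 47.6% in butyrate cultures. The ratio of RPL26L1 to RPL26 went from 15.2% ± 1.00 to 11.7% ± 0.763, that of RPL7L1 to RPL7 from 17.8% ± 0.886 to 14.9% ± 0.785, and that of RPL36AL to RPL36A from 199.6% ± 7.63 to 169.8% ± 1.33. In these 5 pairs the paralog was lower relative to its partner in every butyrate culture.

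RPS4Y1 and RPS4X went the other way. The row named RPS4Y1 lies on chromosome 23 in these files (chr23:10528437-10544227), and RPS4X on the X chromosome. RPS4X fell by 0.46, from 192, 190 and 178 FPKM to 136, 131 and 140 FPKM, whereas RPS4Y1 measured 390, 388 and 406 FPKM in control and 355, 380 and 339 FPKM in butyrate cultures (-0.14, limma adjusted p = 0.0339). The RPS4Y1 call was lost when any culture but butyrate replicate 2 was left out (limma adjusted p from 0.0665 to 0.112), and its direction turned after quantile normalization (0.087). The ratio of RPS4Y1 to RPS4X was 203, 205 and 228% in control and 261, 290 and 242% in butyrate cultures. For each of the 6 ratios the groups did not overlap, and an exact two-sided permutation test gave p = 0.1, the smallest it can give with 3 cultures against 3.

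Paralogs known from other tissues were at or near 0. RPL10L, a testis paralog of RPL10, was listed at 0 in all 6 cultures. RPL3L, a paralog of RPL3 from striated muscle, was listed at 0, 0.364 and 0.723 FPKM in control cultures and at 0 in all butyrate cultures, values that Cufflinks' intervals place at 4 fragments or fewer, and it was not called (limma adjusted p = 0.0757), though it was without control replicate 1 (limma adjusted p = 0.00311). The second rows of RPL19 and RPL36A were short loci of 309 and 412 bases on chromosomes 7 and 15, whose reads cannot be told from those of a processed copy. The RPL36A row on chromosome 15 averaged 15.6 ± 2.75 FPKM in control and 7.19 ± 1.75 FPKM in butyrate cultures, against 402 and 291 FPKM at the main locus on the X chromosome. The RPL19 row on chromosome 7 averaged 5.94 ± 2.02 and 3.31 ± 0.403 FPKM. Both were called lower (limma adjusted p = 0.00107 and 0.0275), and both rest on at most 33 fragments in a culture. The call for the chromosome 7 row was lost when any culture but control replicate 2 was left out (limma adjusted p from 0.0681 to 0.115).

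**Figure D4:**
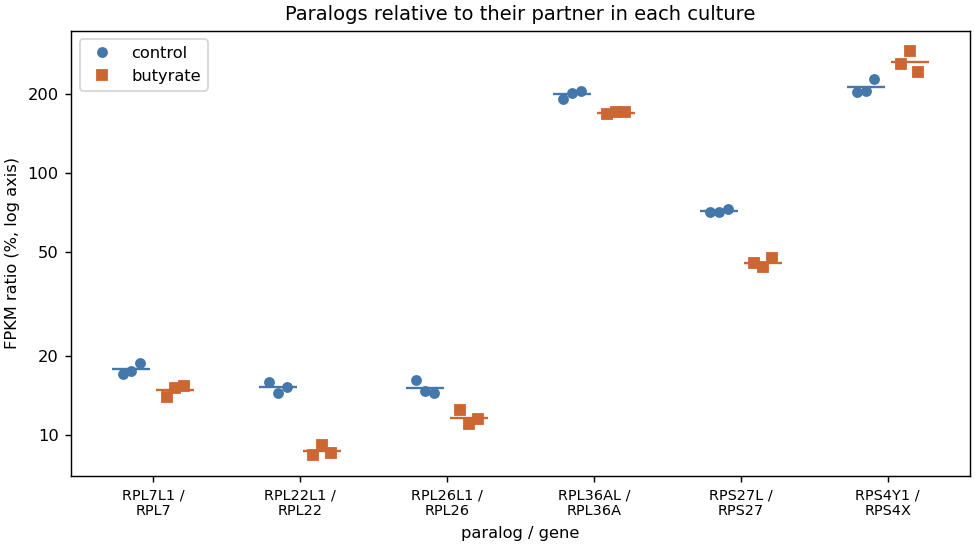
FPKM of 6 paralogs as a percentage of the partner gene's FPKM (y axis, log scale) in each culture, circles for control, squares for butyrate and lines for the mean of 3 cultures. 5 of the ratios are lower in all butyrate cultures, most clearly RPL22L1 to RPL22 (15.3 to 8.72%) and RPS27L to RPS27 (71.6 to 45.6%), and RPS4Y1 to RPS4X is higher (212 to 264%).

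FAU and RPL36AL, ribosomal protein genes outside the name pattern, were both called lower. FAU, a fusion of a ubiquitin-like and a small subunit protein, went from 295 ± 26.9 to 216 ± 11.4 FPKM (-0.45, limma adjusted p = 0.000642). RPL36AL went from 801 ± 24.8 to 494 ± 25.5 FPKM (-0.70, limma adjusted p = 3.6e-06).

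The proteins of the mitochondrial ribosome, which translates the few mRNAs of the mitochondrial genome, were lower as well. Of 76 tested genes, 65 were called lower, 0 higher and 11 neither, with a median of -0.56, beside -0.52 for the cytosolic genes. Over all tested genes 25.9% were called lower and 32.5% higher. Rescaling to equal totals left 57 lower and 1 higher, with medians of -0.44 for the mitochondrial and -0.39 for the cytosolic genes. Quantile normalization left 60 lower and 1 higher, with medians of -0.48 and -0.27, so how close the 2 medians lie depends on the scaling. MRPL15 measured 48.8, 43.7 and 48.8 FPKM in control and 7.82, 7.74 and 8.92 FPKM in butyrate cultures, a log2 fold change of -2.52. MRPS7 averaged 96.9 FPKM in control and 21.9 FPKM in butyrate cultures, a log2 fold change of -2.15. These 2 of the 76 met the study's DEG thresholds for lower, as did 1.51% of all tested genes and no cytosolic gene. MRPL46 fell by 1.61, from 50.8 ± 1.32 to 16.6 ± 2.12 FPKM. MRPL14, the gene farthest above 0, averaged 75.8 ± 0.130 and 84.5 ± 6.16 FPKM and was not called (limma adjusted p = 0.0552); it is named here after its value was seen, and 3 other scalings called it higher.

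Elongation factors and other proteins with TOP mRNAs were more mixed. Of 20 genes, 15 were called lower, 2 higher and 3 neither, with a median of -0.31. After rescaling to equal totals 11 were lower and 3 higher. Over all tested genes 25.9% were called lower and 32.5% higher. Among those at 100 FPKM or more 56.8% were called lower, with a median of -0.23. After rescaling to equal totals 577 of these 1198 genes were lower and 407 higher. NPM1, a nucleolar chaperone of ribosome assembly, measured 312, 300 and 308 FPKM in control and 81.0, 70.1 and 83.7 FPKM in butyrate cultures, a log2 fold change of -1.97 (SE 0.067, limma adjusted p = 1.1e-07). HNRNPA1, an RNA-binding protein, fell by 1.02, and EEF1B2, the exchange factor of the elongation factor EEF1A, fell by 1.00. EEF2, which moves the ribosome along the mRNA, and TPT1 were the 2 called higher, by 0.21 and 0.14, and both stayed above 0 under each scaling; these genes and the 3 not called are named after their values were seen. EEF1A1, EIF2S3 and EIF3H were not called, with EEF1A1, the factor that brings tRNAs to the ribosome, at 196 ± 8.29 and 195 ± 2.13 FPKM; rescaling to equal totals called EEF1A1 higher (0.12, limma adjusted p = 0.0486).

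Chaperones and importers bring single ribosomal proteins to the assembling subunits. Of the 6 measured, 5 were called lower under each scaling, with a median of -0.58 in the FPKM as deposited. Over all tested genes 25.9% were called lower in the FPKM as deposited. GRWD1, the chaperone of RPL3, measured 38.7, 35.5 and 37.9 FPKM in control and 8.27, 9.63 and 9.41 FPKM in butyrate cultures, a log2 fold change of -2.03 (SE 0.084) that met the DEG thresholds. BCCIP, a chaperone of RPL23, averaged 131.9 ± 0.976 and 65.5 ± 5.81 FPKM, a log2 fold change of -1.01, whereas RPL23 itself was at 87.1% of control, fell by 0.20 and was called higher after quantile normalization. TSR2, the chaperone of RPS26, fell by 0.67, PDCD2, a chaperone of RPS2, fell by 0.49, and HEATR3, which imports RPL5, fell by 0.48. PDCD2L averaged 3.60 ± 0.320 and 3.62 ± 0.461 FPKM and was not called (limma adjusted p = 0.983).

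The 14 genes of the signalling that acts on ribosomal protein synthesis did not move one way. 5 were called lower, 3 higher and 6 neither, with a median of -0.11 that came to 0.010 after rescaling to equal totals. Over all tested genes 25.9% were called lower and 32.5% higher. Their median was 0.10 and came to 0.22 after that rescaling. MLST8, a subunit of the mTOR complexes, fell by 0.91, from 40.8 ± 1.98 to 21.7 ± 1.09 FPKM. TSC2, which restrains mTOR complex 1, measured 17.2, 17.7 and 17.9 FPKM in control and 33.6, 31.8 and 35.4 FPKM in butyrate cultures, a rise of 0.93 (SE 0.067, limma adjusted p = 6.1e-06). DEPTOR, an mTOR inhibitor, was listed at 0 in all control cultures and at 0.230, 0.418 and 0.582 FPKM in butyrate cultures and was called higher (limma adjusted p = 0.00208). MYC, a transcription factor that raises ribosomal protein gene expression, averaged 95.3 ± 5.16 and 58.8 ± 9.52 FPKM (-0.71, limma adjusted p = 0.000461); it is named after its value was seen, as are the others called. RPTOR and RHEB, which also belong to mTOR signalling, had log2 fold changes of -0.56 and -0.46. AKT1S1, like DEPTOR an mTOR inhibitor, went the other way from DEPTOR, with a log2 fold change of -0.81. EIF4EBP2, a repressor of translation that mTOR inactivates, rose by 0.34 with overlapping groups (limma adjusted p = 0.0427). Rescaling to equal totals gave 5 lower and 5 higher, since MTOR (0.37, limma adjusted p = 0.0152) and TSC1 (0.51, limma adjusted p = 0.0241) were then called higher too. MDM2, the ligase that the particle of RPL5 and RPL11 can bind, went from 27.4 ± 1.59 to 22.5 ± 0.901 FPKM (-0.28, limma adjusted p = 0.00866), a call lost after rescaling to equal totals. MDM4, its relative, was not called (-0.32, limma adjusted p = 0.186).

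**Figure D5:**
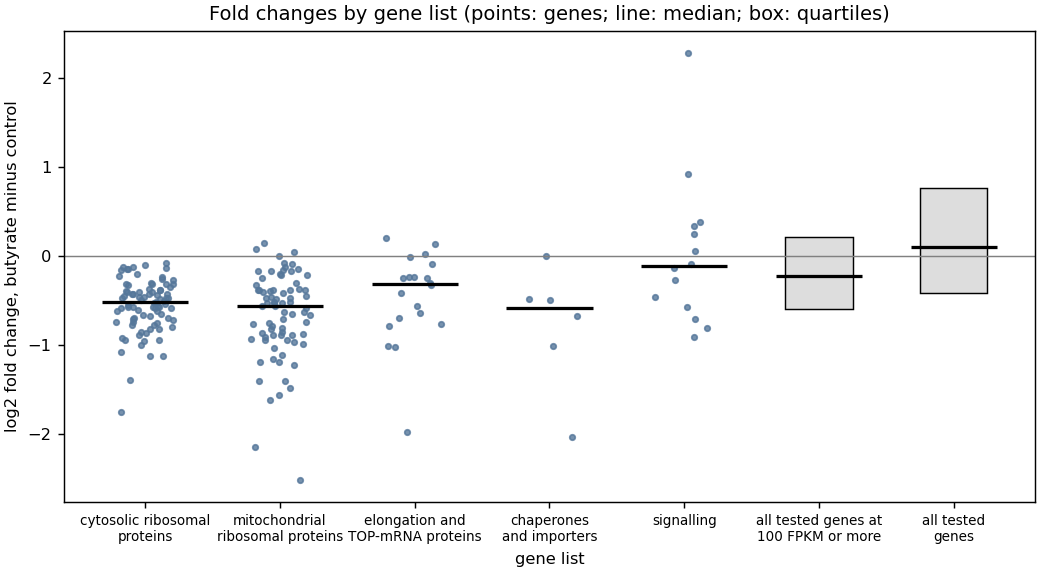
Log2 fold changes, butyrate minus control (y axis), of the tested genes in 5 lists (1 point per gene, line at the median), beside the median and quartiles (boxes) of all tested genes at 100 FPKM or more and of all tested genes. The cytosolic and mitochondrial ribosomal proteins have medians of -0.52 and -0.56, which come to -0.27 and -0.48 after quantile normalization. All tested genes at 100 FPKM or more have a median of -0.23, beside -0.48 for the cytosolic genes in that range. Many mitochondrial genes lie under 100 FPKM, so that box does not match them in level. The signalling genes lie on both sides of 0, with a median of -0.11 that comes to 0.010 after rescaling to equal totals. The highest signalling point (DEPTOR) and the lowest cytosolic point (RPL3L) have a group listed at 0.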

How the data were processed

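Expression was analysed in 6 cultures, 3 with and 3 without butyrate, grouped by the labels. The deposited tables hold FPKM values per gene and their intervals. According to the study's methods and the submitters' processing notes, the authors trimmed reads with Trim Galore 0.4.1, aligned them with STAR to UMD3.1, used uniquely mapped reads only and estimated FPKM with Cufflinks; other versions are not given in the sources used here. Libraries were made from total RNA with a TruSeq kit and sequenced as paired ends. Read totals are not in these tables, so fragments per gene were derived from the interval widths, and they cover counting error only. Chromosome names were assigned by agreement with the study's gene tables (1139 of 1142 genes).

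limma 3.58.1 (R 4.3.3) was fitted to log2(FPKM + 0.1) for genes with a mean of at least 0.1 FPKM, with a mean-variance trend and no covariate, and tested on simulated data beforehand. The added 0.1 understates changes of low genes. The 2 rows that Cufflinks failed to estimate somewhere were excluded. A gene was called at a Benjamini-Hochberg adjusted p under 0.05; the study's DEG thresholds (Bonferroni-adjusted p under 0.05, log2 fold change beyond 2) were counted beside it. Paralog ratios were tested by exact two-sided permutation of the cultures. The genes named were those meeting the DEG thresholds, the 6 largest and 6 smallest falls at a mean of 1 FPKM or more, the 5 highest and 5 lowest levels, the paralog pairs, RPL5, RPL11, RPLP0, RPLP1, RPLP2 and RPSA, and in each other list the 3 largest changes called, or all genes in lists of 6 or fewer; some genes that this rule names are not reported here, and others are named as values of a group or as seen afterwards. The genes and lists were chosen with earlier results of these data known.

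Replicate numbers are shared by the groups, but deviations of same-numbered cultures from their group means correlated at 0.0228, -0.0043 and 0.0018, so the numbers were not taken as pairs. Alternatives covered the pseudocount, the filter, the scaling, the trend, the block, the call rule, the choice of rows and each culture left out. A count of TOP sequences at start sites was not run, and no sequences are shown.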

Additional observations from a re-analysis of the deposited data

How the results depend on the processing

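The count of ribosomal protein genes called lower was 80, and 0 were called higher. Called lower stayed at 68 to 80 under other pseudocounts, filters, scalings, the fit without the trend and other choices of rows, with 72 after rescaling to equal totals (TPM) and 68 after quantile normalization, which also called 3 higher (RPL23 and RPL37A among them). Stricter rules changed the count by their construction, to 41 with the Bonferroni adjustment, 4 with a log2 fold change beyond 1 (RPL22L1, RPL3, RPL10A and the RPL36A row on chromosome 15) and 0 with the DEG thresholds. The median log2 fold change of -0.52 moved to -0.39 with TPM and -0.27 with quantile normalization. It moved to -0.48 when the median log2 ratio of the genes at 1 FPKM or more in every culture was set to 0. TPM moved the median of all tested genes by 0.12 and quantile normalization by -0.15, and relative to that median the ribosomal protein genes stood at -0.62, -0.62 and -0.22 in FPKM, TPM and after quantile normalization; the cause of the difference was not tested. Leaving out each culture in turn gave 74 to 80 called lower, 0 to 0 called higher, medians of -0.53 to -0.50 and a difference in share of -2.02 to -1.85 percentage points. With the replicate number as a block, 79 were called lower and the RPS4Y1 call was lost. The numbers were not taken as pairs, and the cause of this change was not tested. Signs turned, with the cause not tested, for RPL17 (TPM 0.0044, quantile 0.090), RPL37A (TPM 0.052, quantile 0.23), RPLP0 (TPM 0.026, quantile 0.061), RPS27 (TPM 0.00057, quantile 0.0074), RPL11 (quantile 0.0030), RPLP1 (quantile 0.024), RPS4Y1 (quantile 0.087) and PDCD2L (quantile -0.18, and -0.092 to 0.079 with a culture left out, below 0 without control or butyrate replicate 1). Over the 51 named genes tested, 764 of 916 comparisons with an alternative left direction and call in place, 133 lost the call, 5 gained it and 14 turned sign. Depth limits RPL3L and the second rows of RPL19 and RPL36A, which rest on few fragments.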

Other observations

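The RPS6K genes share part of their name with RPS6 but encode kinases, several of which phosphorylate ribosomal protein S6 or histones, and they were kept out of the ribosomal protein genes. None of the 10 was called lower and 4 were called higher, with a median log2 fold change of 0.13. Over all tested genes 25.9% were called lower and 32.5% higher, with a median of 0.10. After quantile normalization 1 of the 10 was called lower. RPS6KA5, a kinase of histone H3, measured 0.268, 0.309 and 0.223 FPKM in control and 1.502, 1.20 and 1.13 FPKM in butyrate cultures, a rise of 1.90 (SE 0.27, limma adjusted p = 0.000346). RPS6KA2, RPS6KA1 and RPS6KC1 rose by 0.92, 0.42 and 0.31. RPS6KB1, the S6 kinase downstream of mTOR, averaged 27.8 ± 0.364 and 28.9 ± 1.73 FPKM and was not called (limma adjusted p = 0.507). These genes are named after their values were seen.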
